A study of Homo sapiens with 4 samples.

Results

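Human chromosome 9 was examined on both sides of its large heterochromatin in Hi-C maps of IMR90 cells, normal diploid lung fibroblasts. Hi-C cuts fixed chromatin, here with HindIII, ligates the ends of DNA that were neighbours in the nucleus, and sequencing then counts these joints. All bins of chromosome 9 were taken by position, 617 of 14444 bins of the whole genome. The p arm held 235 bins below 47 Mb and the q arm 379 bins above 65 Mb on GRCh37 (hg19), and 3 bins lay in neither. The choice of this chromosome and of its limits was made with results of these data known. The maps cover 4 conditions: growing cells (Grow), growing cells with a short hairpin RNA against HMGA1 (Grow-shA1), cells in oncogene-induced senescence (OIS) and such cells with the hairpin (OIS-shA1). The samples of Grow-shA1 and OIS-shA1 carried ER:HRAS G12V from pLNCX2, a RAS oncoprotein that 4OHT switches on, and the miR30-type HMGA1 hairpin from pMSCV. OIS-shA1 cells had 6 days of 4OHT at 100 nM and Grow-shA1 cells none. A single hairpin was used, so effects of it on other transcripts cannot be told apart from those of HMGA1. The Grow and OIS maps are older data by the same group and are tied to none of the samples listed here. There was 1 map per condition, and each shA1 map pooled 2 samples. No spread between replicates was therefore known, no test was possible, and every map with shA1 differs from every map without it by data set as well as by hairpin.

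Chromosome 9 carries beside its centromere, in q12, one of the longest blocks of satellite repeats in the human genome, together with those of chromosomes 1 and 16. Such repeats are packed as constitutive heterochromatin, which stays condensed through the cell cycle and tends to gather with other heterochromatin in the nucleus. Fibroblasts that senesce through oncogenic RAS often rearrange heterochromatin into senescence-associated heterochromatic foci. HMGA1, a small chromatin protein that binds the minor groove of AT-rich DNA, is a component of those foci. The p arm also bears the CDKN2A and CDKN2B genes, which encode the cell cycle inhibitors through which senescence arrest is held, beside the cluster of type I interferon genes.

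The block itself was not measured. It was a single bin, chr9:47315557-65470568, 18.2 Mb long, in which 99.97% of the reference bases were unknown, and it had no value in any map. The sequence on either side of it is shown first, because the arms meet in these maps only across this bin. It was read from the GRCh37 plus strand, and the capitals mark the HindIII sites at which the authors' bins end. Neither stretch, chr9:47315516-47315601 at the p edge and chr9:65470528-65470613 at the q edge, lay in an annotated protein-coding or long non-coding RNA gene.
p edge of the block: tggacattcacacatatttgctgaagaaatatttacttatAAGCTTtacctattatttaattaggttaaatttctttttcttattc
q edge of the block: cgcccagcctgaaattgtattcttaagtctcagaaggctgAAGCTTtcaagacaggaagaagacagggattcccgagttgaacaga
The p edge stretch was 23.3% GC and the q edge stretch 46.5% GC.

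The p arm ends and the q arm begins in long stretches of near-identical duplicated sequence, and these thinned the maps. Between 38 and 47 Mb, 25 of 45 bins had no value in any map and 8 were kept, a kept bin having a value in every map for at least 50% of its pairs on the chromosome. Between 65 and 71 Mb, 11 of 28 bins had no value and 9 were kept. Reads of near-identical copies cannot be placed with certainty, so values of these flanks are uncertain. Over the chromosome 580 bins had a value and 515 were kept, 198 in the p arm and 317 in the q arm. At the other end of the q arm, over 60 Mb from the block, all 81 bins had a value but 43 were not kept. The dropped bins there had a mean GC content of 53.2% and the kept ones 46.1%, so the gene-rich end is represented by its less GC-rich bins.

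Each value is a score, corrected by the authors for distance, so that a score above 0 stands for more contact than other pairs of that separation had. The base of the scale is not stated, and differences are therefore given in score units. Kept bins were called A (active) or B (inactive) by the first principal component of the Grow map of the whole chromosome. The p arm had 61 A bins among 198 (30.8%) and the q arm 153 among 317 (48.3%). Components computed from each arm alone correlated with the whole-chromosome score at r = 0.980 to 0.994 across bins in the 4 maps. The score correlated across bins with GC content in Grow at r = 0.589 in the p arm and r = 0.369 in the q arm. Pairs over 2 Mb apart were compared.

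Contacts between the arms were lower in the senescent maps. The mean score of pairs that join the arms was 0.231 in Grow, 0.165 in Grow-shA1, 0.105 in OIS and 0.088 in OIS-shA1. The RAS difference was -0.127 without shA1 (OIS minus Grow) and -0.077 with it (OIS-shA1 minus Grow-shA1). Of the single bins, 181 of 198 in the p arm and 254 of 317 in the q arm had a lower mean contact with the other arm in OIS than in Grow. With shA1 in both maps the counts were 170 and 205. These means rest on the 30037 pairs listed in all 4 maps of 62766 possible ones. Listing was also lower, going from 84.6% of pairs between the arms in Grow to 66.4% in OIS, and from 78.2% in Grow-shA1 to 65.3% in OIS-shA1. A pair may be unlisted because few contacts were seen or because a map was sequenced less deeply. The authors report fewer reads, after removal of artefacts, for OIS-shA1 than for Grow-shA1. The depth of the Grow and OIS maps is not given here.

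Listing of the 3 kinds of compartment pair differed unequally. Between the arms, A-B pairs went from 72.6% listed in Grow to 48.9% in OIS, a difference of -23.7 percentage points. The difference was -14.6 points for B-B pairs and -9.23 points for A-A pairs. Within the p arm A-B pairs differed by -13.3 points and B-B pairs by -1.11 points, and within the q arm by -11.5 and -2.27 points. In each of the 3 sets of pairs, therefore, pairs of unlike compartment had the largest difference in listing.

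**Figure D1:**
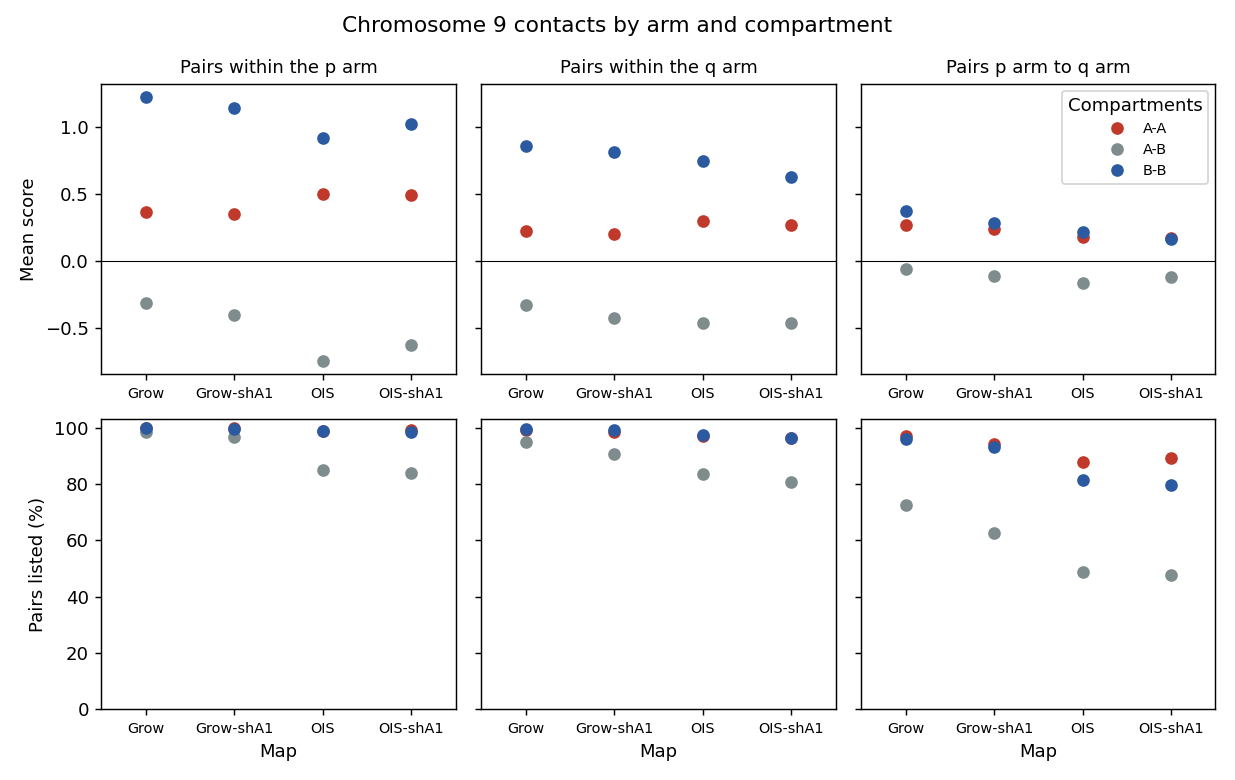
Mean score (top, score units, over pairs over 2 Mb apart listed in all 4 maps) and share of possible pairs listed (bottom, %) in each of the 4 maps, for pairs within the p arm, within the q arm and between the arms. Each point is 1 class of compartment pair in 1 map. Between the arms the 3 classes lie close together and A-B listing is 72.6% in Grow and 48.9% in OIS, while within the p arm the A-B mean moves from -0.319 to -0.749.

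The difference between the arms could be set against pairs of the same arm at the same separation on the reference. Separations across the block include its 18.2 Mb of reference length, of which 99.97% is unknown bases. That length was not measured here, so the match in separation is nominal. At 30 to 40 Mb, pairs between the arms had a mean of 0.544 in Grow, 0.460 in Grow-shA1, -0.012 in OIS and -0.029 in OIS-shA1. Pairs within the q arm at that separation had 0.335, 0.235, 0.274 and 0.251, and pairs within the p arm 0.345, 0.220, 0.359 and 0.269. OIS minus Grow was thus -0.556 across the block, -0.061 within the q arm and 0.013 within the p arm. At 40 to 50 Mb it was -0.333 across the block and -0.014 within the q arm, and at 50 to 60 Mb -0.226 and 0.010. The other classes did not follow this order. At 20 to 30 Mb it was -0.107 across the block, over 66 pairs, against -0.068 within the q arm and -0.436 within the p arm, and at 60 to 70 Mb -0.105 across the block against -0.205 over 134 pairs within the q arm. In Grow, pairs across the block had scored above pairs of the same arm at 30 to 40 Mb, and in OIS they scored below them.

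**Figure D2:**
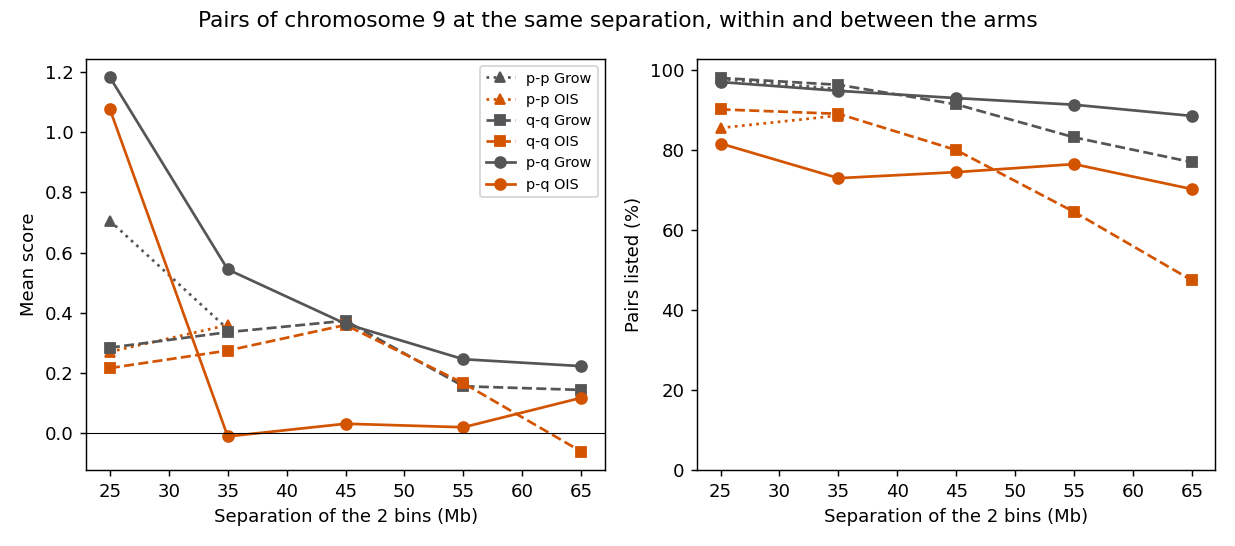
Mean score (left) and share of pairs listed (right, %) against the separation of the bins (Mb, in classes of 10 Mb) for pairs within the p arm (triangles), within the q arm (squares) and between the arms (circles), in Grow (grey) and OIS (orange). At 35 Mb the circles lie at 0.544 in Grow and -0.012 in OIS and the squares at 0.335 and 0.274.

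Arm separation summarises this as the mean within arms minus that between arms at equal reference separation from 20 to 70 Mb. It rests on 11017 pairs between the arms and 16310 within them. Arm separation was -0.107 in Grow, -0.134 in Grow-shA1, 0.026 in OIS and -0.015 in OIS-shA1. The RAS difference was 0.133 without shA1 and 0.119 with it. OIS-shA1 differed from OIS by -0.041 and Grow-shA1 from Grow by -0.027, both smaller than either RAS difference.

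The difference per pair was larger near the block. Among p-q pairs with both bins within 20 Mb of it, a distance chosen after the values were seen, the mean was 0.325 in Grow, 0.249 in Grow-shA1, -0.054 in OIS and -0.082 in OIS-shA1. OIS minus Grow was -0.379, and 76.3% of the 2738 pairs were lower. The difference was -0.330 with shA1, and 69.8% of pairs were lower. The 27299 other p-q pairs differed by -0.101 and -0.052. Near the block the difference was of like size for A-A (-0.359), A-B (-0.306) and B-B pairs (-0.422). Listing of these near pairs was 93.0% in Grow, 87.8% in Grow-shA1, 73.3% in OIS and 68.9% in OIS-shA1. OIS-shA1 minus OIS was -0.028, so the near pairs of the hairpin map were no closer to Grow than those of OIS. The sign of that small difference turned when unlisted pairs were counted as 0 (0.028).

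By distance, the lowest RAS difference was that of pairs joining the q flank to the p arm between 9 and 20 Mb from the block. This p arm stretch runs from PAX5, a B cell transcription factor gene, down to about TEK, an endothelial receptor kinase gene. Its 324 pairs with the q arm's first 6 Mb had a mean of 1.24 in Grow, 1.21 in Grow-shA1, 0.567 in OIS and 0.601 in OIS-shA1. The RAS difference was -0.673 without shA1 and -0.611 with it. The p arm's first 9 Mb with the q arm from 6 to 25 Mb differed by -0.384 and -0.304. The q flank with the p arm from 20 to 30 Mb differed by -0.415 and -0.201. The 59 pairs of the 2 flanks themselves, the closest across the block, kept a mean of 1.62 in Grow, 1.56 in Grow-shA1, 1.54 in OIS and 1.56 in OIS-shA1. These flanks are the duplicated stretches, where a read of one side may have been placed on the other. Beyond 25 Mb on the q arm the zones differed by -0.157 to 0.081 in OIS minus Grow.

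**Figure D3:**
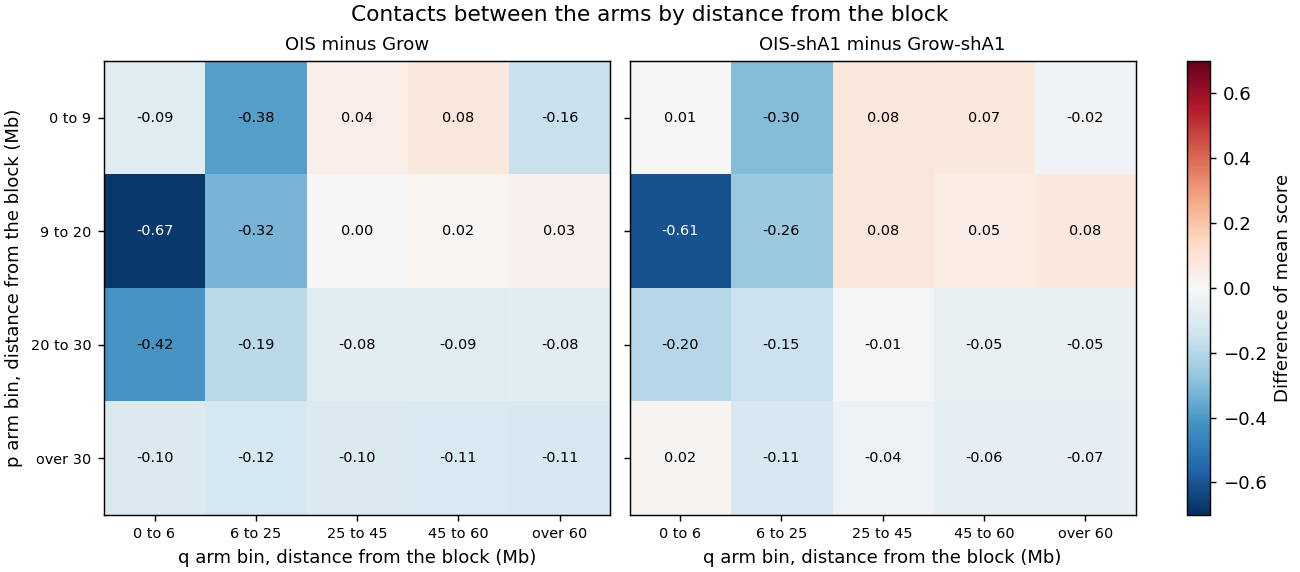
Difference of mean score of p-q pairs in OIS minus Grow (left) and OIS-shA1 minus Grow-shA1 (right), by distance of the p arm bin (rows, Mb) and the q arm bin (columns, Mb) from the block. Each square is 1 zone and blue is lower in the map with RAS on. The darkest square in both maps joins p arm bins at 9 to 20 Mb with the first 6 Mb of the q arm, at -0.673 and -0.611.

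The same order held for single bins. All 9 kept bins of the q flank and 89 of 95 bins at 6 to 25 Mb had less contact with the p arm in OIS than in Grow, with median differences of -0.337 and -0.207. At 25 to 45 Mb 74 of 100 bins were lower (median -0.100), at 45 to 60 Mb 57 of 75 (-0.062) and beyond 60 Mb 25 of 38 (-0.022). With shA1 in both maps, 8 of 9, 81 of 95, 54 of 100, 41 of 75 and 21 of 38 were lower. The p arm had no such order, with medians of -0.158, -0.143, -0.158 and -0.122 from the nearest to the farthest zone.

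Among genes that neighbour the block, APBA1, a gene of synaptic vesicle transport, had a mean contact with the p arm of 0.154 in Grow, 0.070 in Grow-shA1, -0.133 in OIS and -0.222 in OIS-shA1. PIP5K1B, a phosphoinositide kinase gene, had 0.281, 0.201, -0.057 and -0.133. Both bins were thus above 0 in the growing maps and below 0 in the senescent maps, with and without shA1. On the p side 3 of 4 neighbour bins were lower in OIS than in Grow, against 91.4% of p arm bins. CNTNAP3B, the kept bin nearest the block, was the exception, with 0.432 in Grow, 0.389 in Grow-shA1, 0.457 in OIS and 0.302 in OIS-shA1, over the 19.2% of its p-q pairs listed in all maps. ALDH1B1, an aldehyde dehydrogenase gene, had -0.054, -0.105, -0.096 and -0.102. PAX5 had 0.062, -0.007, -0.051 and 0.023 with the q arm, and SHB, a signalling adaptor gene, 0.112, 0.074, -0.049 and -0.049. CNTNAP3 and ZNF658 had no value, and ANKRD20A1 and PGM5 lay in bins that were not kept.

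Bins at the ends of the range were named by rule, the 2 largest falls and the 2 largest rises of contact with the other arm in each arm, among the 89 p arm and 150 q arm bins with a value for 50% or more of these pairs in all maps. These differences chose the bins and are a description. A stretch of 180 bases from the first of each is shown, because the protein lowered in the shA1 maps prefers AT-rich DNA. It is the stretch whose GC content and share of A/T runs were nearest those of its bin, from the GRCh37 plus strand, with runs of 6 or more A or T in capitals. The stretches are chr9:26271091-26271270, chr9:4223984-4224163, chr9:66834643-66834822 and chr9:106420284-106420463. The second is intronic in GLIS3 and the others lie outside annotated protein-coding and long non-coding RNA genes.
p arm, largest fall: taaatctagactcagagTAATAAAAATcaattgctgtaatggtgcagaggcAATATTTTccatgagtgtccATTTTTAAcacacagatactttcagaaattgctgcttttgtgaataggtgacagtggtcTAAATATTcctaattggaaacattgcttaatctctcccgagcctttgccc
p arm, largest rise: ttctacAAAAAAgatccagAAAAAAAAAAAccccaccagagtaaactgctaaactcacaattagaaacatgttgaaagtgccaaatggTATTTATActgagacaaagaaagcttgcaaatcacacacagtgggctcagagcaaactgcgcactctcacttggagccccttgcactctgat
q arm, largest fall: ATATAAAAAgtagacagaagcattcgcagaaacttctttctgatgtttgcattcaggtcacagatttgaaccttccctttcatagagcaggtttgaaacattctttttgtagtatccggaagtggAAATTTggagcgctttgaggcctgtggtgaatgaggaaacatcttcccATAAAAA
q arm, largest rise: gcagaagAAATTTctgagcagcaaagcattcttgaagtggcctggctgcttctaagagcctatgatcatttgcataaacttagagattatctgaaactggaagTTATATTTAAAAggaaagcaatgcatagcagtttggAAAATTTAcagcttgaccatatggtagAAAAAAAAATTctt
A/T runs made up 18.8%, 14.3%, 12.3% and 20.8% of the respective bins, so the falls and rises did not sort by this measure.

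The q arm falls were both in the duplicated flank. Contact of the bin at chr9:66797923-66997931 with the p arm was 0.946 in Grow, 0.866 in Grow-shA1, 0.411 in OIS and 0.486 in OIS-shA1. The bin at chr9:69799808-70000470 had 1.18, 1.01, 0.715 and 0.702. Both were lower in OIS than in Grow by the rule that chose them. They were also lower in OIS-shA1 than in Grow-shA1, as 72.0% of q arm B bins were. The p arm falls were smaller. The bin at chr9:26199991-26398877, with no protein-coding gene, had 0.119, 0.018, -0.123 and -0.142. The bin of IFT74, LRRC19 and TEK had 0.220, 0.169, -0.010 and 0.003. The p arm rises under this rule were small, at 0.195 in Grow and 0.251 in OIS for the bin within GLIS3, a transcription factor gene. The bin of DENND4C and of RPS6, a ribosomal protein gene, had 0.038 and 0.050. Neither bin rose with shA1 in both maps. The GLIS3 bin had 0.306 in Grow-shA1 and 0.220 in OIS-shA1, and the other bin 0.058 and 0.033. Of p arm A bins 75.4% were lower in that comparison.

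Outside that rule the range in the p arm was wider, from -0.334 to 0.185. Its highest bin, that of CCL19 and CCL21, belongs to a run of 4 A bins, chr9:34000614-34798829, in which at least 30.9% of these pairs were listed in all maps. The run was drawn from that bin over neighbours with a rise, so all 4 had more contact with the q arm in OIS than in Grow by construction. Of all p arm A bins 80.3% had less. The means of the run were 0.187 in Grow, 0.187 in Grow-shA1, 0.287 in OIS and 0.253 in OIS-shA1.

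A longer stretch of the q arm also had more contact with the other arm. Around the bins with the largest rises, 16 successive kept bins, chr9:104401361-107601859, had more contact with the p arm in OIS than in Grow. All 16 were B bins, with a mean GC content of 35.98% against 41.5% over the kept q arm. Their mean contact with the p arm was 0.455 in Grow, 0.267 in Grow-shA1, 0.627 in OIS and 0.411 in OIS-shA1. Of these bins 15 were also higher in OIS-shA1 than in Grow-shA1, whereas 72.0% of q arm B bins were lower. All 16 were lower in OIS-shA1 than in OIS, against 52.4% of q arm B bins. All 16 were lower in Grow-shA1 than in Grow, against 83.5% of q arm B bins. Both of the latter comparisons reuse a map that chose the stretch. The stretch holds GRIN3A, a glutamate receptor gene, CYLC2, a gene of the sperm head, SMC2, a condensin subunit gene, and a cluster of OR13 olfactory receptor genes. Its contact with B bins of its own arm was 1.25 in Grow, 1.26 in Grow-shA1, 0.940 in OIS and 0.889 in OIS-shA1, and that with A bins -0.562, -0.611, -1.22 and -1.12. It thus had less contact with both compartments of its own arm and more with the p arm in OIS than in Grow and in OIS-shA1 than in Grow-shA1, although its p arm contact in OIS-shA1 was below that in Grow. The stretch was picked for its rise.

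**Figure D4:**
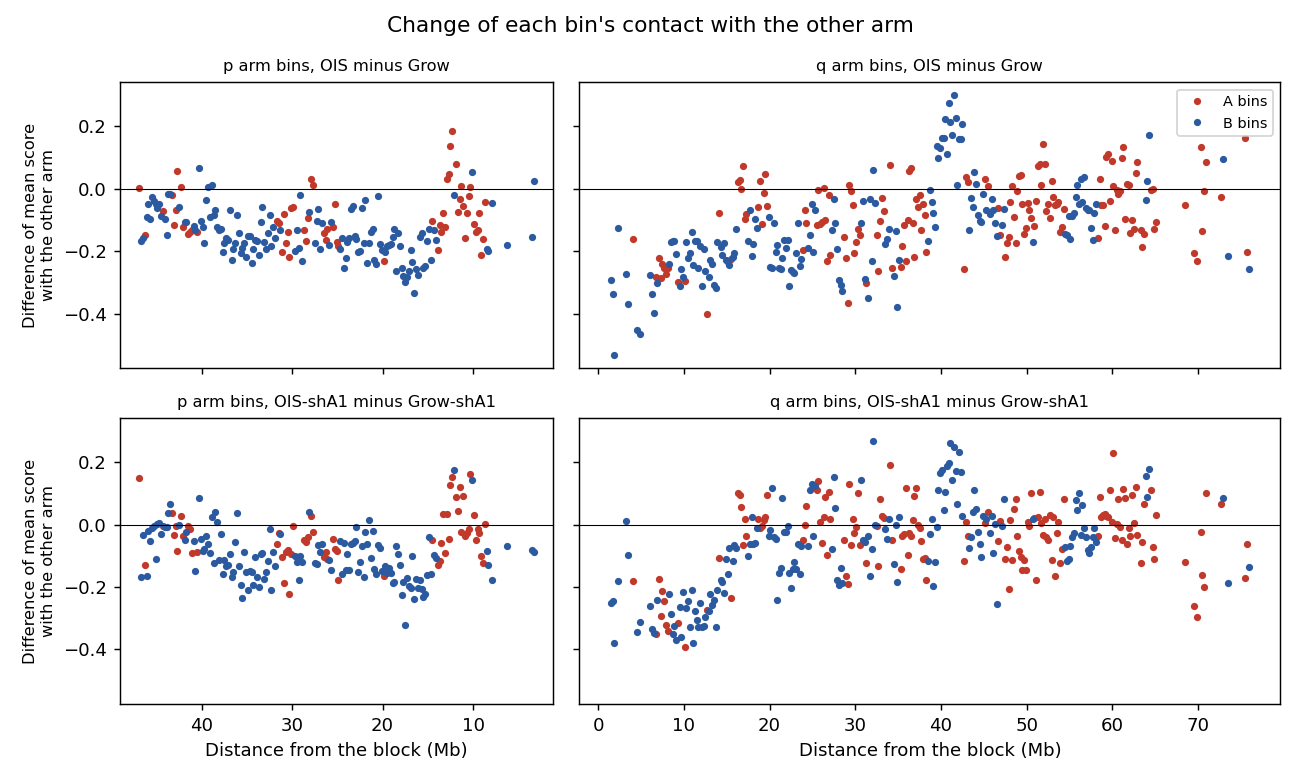
Difference of each kept bin's mean score with the other arm in OIS minus Grow (top) and OIS-shA1 minus Grow-shA1 (bottom) against its distance from the block (Mb), for the p arm (left) and the q arm (right). Each point is 1 bin with at least 10 pairs, red for A and blue for B. Bins of the q arm within 25 Mb lie mostly below 0, and a group of B bins about 40 Mb from the block lies above it in both comparisons.

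The arms were also unlike within themselves. Compartment strength, how far like pairs (A-A and B-B, weighted equally) score above A-B pairs, was 1.11 in Grow, 1.15 in Grow-shA1, 1.46 in OIS and 1.38 in OIS-shA1 within the p arm. Within the q arm it was 0.872, 0.941, 0.983 and 0.911. The RAS difference was 0.345 in the p arm and 0.111 in the q arm without shA1, and 0.237 and -0.030 with it. Between the arms strength was 0.386, 0.376, 0.361 and 0.290, with RAS differences of -0.025 and -0.085. The q arm difference without shA1 turned to -0.012 with unlisted pairs as 0, and that between the arms to 0.046 with unlisted pairs at the lowest score of their separation, whereas the p arm difference stayed above 0 in each alternative tried. In the p arm the A-B mean differed by -0.430 with RAS and the B-B mean by -0.308, while the A-A mean differed by 0.138. The higher p arm strength thus reflected an A-B mean lower by more than the B-B mean was, and a higher A-A mean. OIS-shA1 minus OIS was 0.105 for B-B pairs of the p arm and -0.119 for those of the q arm, opposite in sign. Grow-shA1 minus Grow was -0.087 and -0.039 for the same pairs. By bin, 182 of 198 p arm bins (91.9%) and 232 of 317 q arm bins (73.2%) had less contact with B bins of their own arm in OIS than in Grow, with medians of -0.327 and -0.126. In OIS-shA1 against OIS, 40 p arm bins (20.2%) and 203 q arm bins (64.0%) were lower, with medians of 0.115 and -0.059. These shares over all bins are the background for the genes that follow.

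Few bins changed compartment. From Grow to OIS, 49 bins went from B to A (20 in the p arm, 29 in the q arm) and 4 from A to B, all in the q arm. The 49 were 9.51% of kept bins of chromosome 9, against 8.93% of kept bins over the autosomes and X, and the 4 were 0.777% against 0.839%. These shares are near those of the genome. With shA1 in both maps, 50 went from B to A (9.71% against 7.83%) and 13 from A to B (2.52% against 1.35%). From OIS to OIS-shA1, 7 went from B to A (1.36% against 1.46%) and 17 from A to B (3.30% against 3.11%). From Grow to Grow-shA1 the counts were 9 (1.75% against 1.66%) and 11 (2.14% against 1.69%). Of the B to A bins, 14 of the p arm's 20 without shA1 and 16 with it were shared, and 20 of the q arm's 29 and 34.

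The runs of 3 or more bins from B to A, and some shorter ones picked for their genes, held genes of several kinds. A run of 4 bins at chr9:110600828-111401180, without the start of a protein-coding gene, had mean compartment scores of -0.154 in Grow and 0.145 in OIS, and -0.257 and -0.004 with shA1, and 1 of its bins also changed there. The run of GLDC, the glycine decarboxylase gene, and KDM4C, a histone demethylase gene that acts on heterochromatin marks, had -0.058 and 0.142. With shA1 that run had 0.0016 and 0.118, and 1 of its bins also changed there. The run of GAS1, a gene induced by growth arrest, had -0.055 and 0.151, and -0.180 and 0.171 with shA1, where all 3 bins also changed. The run of MVB12B and LMX1B had -0.100 and 0.080, and -0.118 and 0.055 with shA1, where all 3 bins also changed. The bins around IL33, an alarmin cytokine gene, and RANBP6 had -0.296 and 0.096, and -0.276 and 0.078 with shA1. The bin of KLF4, a transcription factor gene, had -0.113 and 0.237, and its contact with B bins of the q arm was 0.234 in Grow, 0.355 in Grow-shA1, -0.297 in OIS and -0.081 in OIS-shA1.

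The arrest and interferon genes of the p arm lay 19.5 to 25.9 Mb from the block. The bin of CDKN2A and MTAP had a mean contact with B bins of the p arm of 0.428 in Grow, 0.354 in Grow-shA1, -0.263 in OIS and 0.097 in OIS-shA1, and that of CDKN2B had -0.386, -0.491, -0.798 and -0.439. Both arrest bins and all 4 interferon bins were lower in OIS than in Grow and higher in OIS-shA1 than in OIS, as most bins of the p arm were. The bin of IFNA1 and IFNE, which encode type I interferons, had 0.188, 0.164, -0.567 and -0.219. The bin of IFNA2 had 1.41, 1.31, 0.809 and 0.903, and that of IFNB1 and IFNW1 0.940, 0.901, 0.648 and 0.696. IFNK, outside the cluster, had 1.21, 1.13, 0.822 and 0.912. In all of them OIS was the lowest map, and OIS-shA1 lay between OIS and the growing maps except at CDKN2B, where it was 0.052 above Grow-shA1. With the q arm the CDKN2A bin had 0.072, 0.030, -0.101 and -0.053.

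Of the bins of secreted and matrix protein genes on the q arm, 2 of 8 were lower in OIS than in Grow in contact with B bins of the arm, with a median of 0.097 against -0.126 over the arm. With shA1 in both maps 1 of 8 was lower, with a median of 0.195 against -0.130. All 8 are A bins, and over the A bins of the q arm the mean differences were -0.130 without shA1 and -0.027 with it. On the p arm 1 of 2 was lower in OIS than in Grow. The p arm bin of CCL19 and CCL21, chemokines that guide lymphocytes, had -0.459 in Grow, -0.612 in Grow-shA1, -1.12 in OIS and -1.24 in OIS-shA1 with B bins of its arm. On the q arm, where these genes are in A bins, the bin of ASPN and ECM2, matrix protein genes, had -0.677, -0.867, -0.355 and -0.811. That of COL15A1, a basement membrane collagen gene, had -0.952, -1.12, -0.785 and -0.650. TNC, which encodes tenascin, had -0.832, -0.878, -0.781 and -0.610. The 2 lower bins were those of PAPPA, a protease gene of the insulin-like growth factor system (-0.486 in Grow and -0.504 in OIS), and of SVEP1, a matrix adhesion gene (-0.744 and -0.897). COL5A1 and LCN2 were in bins that were not kept.

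Of the signalling genes, both p arm bins and 7 of 8 q arm bins had less contact with B bins of their arm in OIS than in Grow. JAK2, the kinase of many cytokine receptors, had -0.313, -0.458, -1.20 and -1.09 with B bins of the p arm. TGFBR1, a receptor of TGF-beta, had -0.730, -0.899, -0.694 and -0.666 with those of the q arm. TLR4, a receptor of innate immunity in a B bin, had 1.34, 1.30, 1.14 and 1.04. ENG and NOTCH1 were in bins that were not kept, in the GC-rich end of the arm.

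The genes listed as long neuronal genes, all in B bins here, differed by arm as well. On the p arm PTPRD, a receptor phosphatase gene, had 1.67 in Grow, 1.53 in Grow-shA1, 1.22 in OIS and 1.48 in OIS-shA1 with B bins of its arm. LINGO2 had 1.51, 1.45, 1.23 and 1.49, ELAVL2, an RNA-binding protein gene, 1.65, 1.56, 1.28 and 1.48, and SLC24A2 1.24, 1.23, 1.07 and 1.22. In these 4 bins OIS was the lowest map, and OIS-shA1 was above it with a median difference of 0.230, against 0.115 over the p arm. On the q arm NTRK2, a neurotrophin receptor gene, had 1.39, 1.33, 1.35 and 1.17, PCSK5, a proprotein convertase gene, 1.09, 1.12, 1.17 and 1.08, and ASTN2 1.07, 0.931, 1.07 and 0.779. Of the 6 q arm bins 4 were lower in OIS than in Grow, with a median of -0.024. All 6 were lower in OIS-shA1 than in OIS, with a median of -0.151 against -0.059 over the arm. All 6 are B bins, and over the B bins of the q arm the mean of that difference was -0.117.

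GC content correlated with the RAS difference of contact with A bins in the same direction on both sides of the block, at r = 0.650 in the p arm (n = 197 bins) and 0.385 in the q arm (n = 316) for A bins of the same arm, and at r = 0.379 (n = 148) and 0.310 (n = 260) for A bins of the other arm. For B bins of the other arm the sign differed in OIS minus Grow, but not in OIS-shA1 minus Grow-shA1 (r = 0.387 in the p arm and 0.082 in the q arm). Across the 195 p arm bins with enough pairs, GC content correlated with the RAS difference of contact with B bins of the q arm at r = 0.436, and across 295 q arm bins with that of the p arm at r = -0.132. For contact with B bins of the same arm r was -0.068 and -0.160. For contact with B bins in OIS-shA1 minus OIS, r was 0.345 in the p arm and 0.496 in the q arm with the other arm, and -0.357 and 0.060 within the arm. Bins share pairs, neighbours and base composition, so these are descriptions.

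The pairs with the largest rises were described as a network. The 844 pairs with the largest rise in OIS minus Grow, 1% of pairs over 2 Mb apart, were higher by at least 1.25, and the next pair by 1.25 as well. Pairs between the arms made up 34.6% of them and 35.6% of all pairs. This share depended on the treatment of the values, at 89.1% with scores in SD units, 10.5% with unlisted pairs as 0, 13.2% at 5 to 70 Mb and 11.5% after averaging over 3 by 3 pairs. Comparing OIS-shA1 with Grow-shA1 gave a share of 26.5%, OIS-shA1 with OIS 26.7%, while Grow-shA1 with Grow gave 55.1%. Joined as a network, each set reached a largest k of 3, k being the number of partners that every bin of a subnetwork has at least. The RAS core spanned 47 p arm and 130 q arm bins, 28.2% of them B, against 58.4% B over kept bins. After averaging over 3 by 3 pairs it reached a k of 6 with 29 bins, all in the q arm within chr9:90198512-112998785. That of OIS-shA1 minus OIS then reached 7, with 30 bins of the q arm within chr9:95801930-126998913. Averaging makes neighbouring pairs share values, and the largest k was higher in every comparison. It was 5 for OIS-shA1 minus Grow-shA1 and 4 for Grow-shA1 minus Grow. These values can therefore not be set against the k of 3.

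Chromosome 9 was set beside the 16 other chromosomes with at least 20 kept bins in each arm, whose arms were divided at the longest span without values. Near that span, within 20 Mb, its OIS minus Grow difference of p-q pairs (-0.379) was the lowest of the 17, followed by chromosome 16 at -0.346, with a median of -0.096 and -0.192 on chromosome 1. With shA1 in both maps it was again lowest, at -0.330, with -0.295 on chromosome 16 and -0.251 on chromosome 1, the next in order. The difference was above 0 on 5 chromosomes without shA1 and on 6 with it. Chromosome 9 also had the highest near mean in Grow, at 0.325 against a median of -0.063. The lowest place without shA1 depended on the duplicated flanks. Without those flanks chromosome 9 differed by -0.338, less than chromosome 16, and with shA1 by -0.296, close to chromosome 16. The 20 Mb had been picked on chromosome 9, so its rank is a description. Over all p-q pairs it was the third lowest, at -0.127, behind chromosome 16 at -0.211 and 1 other. In arm separation it was the lowest in Grow (-0.107) and its RAS difference of 0.133 was below those of chromosome 1 (0.209) and 1 other.

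**Figure D5:**
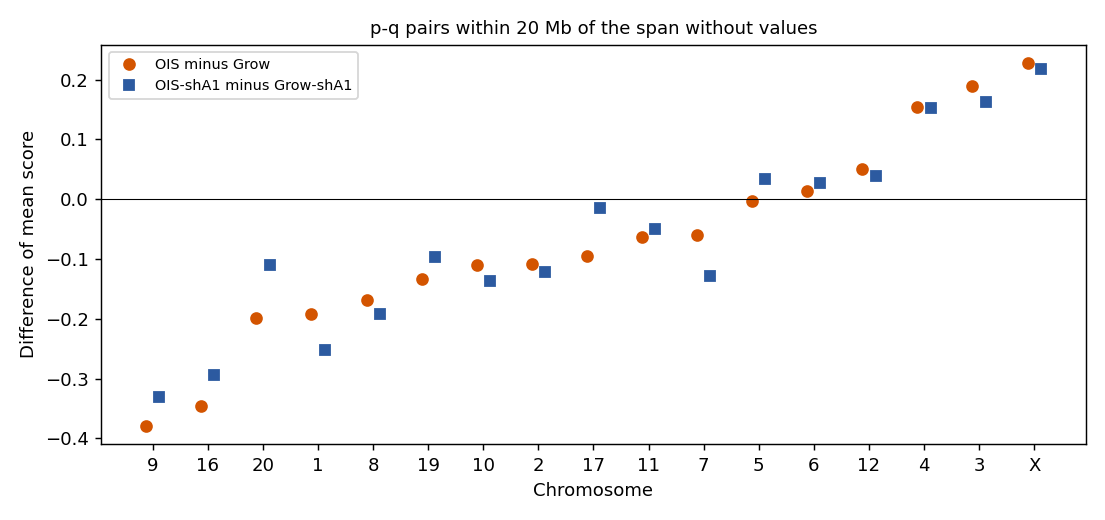
Difference of the mean score of p-q pairs with both bins within 20 Mb of the span without values, on each of 17 chromosomes, in OIS minus Grow (circles) and OIS-shA1 minus Grow-shA1 (squares), ordered by the first. Chromosome 9, with its duplicated flanks included, lies lowest in both (-0.379 and -0.330), and chromosome X highest in both. The span is longer on chromosomes 1, 9 and 16 than on the others, so the separations of these pairs are unlike.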

How the data were processed

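The values analysed are deposited scores, 1 for each listed pair of bins on the same chromosome, in 4 maps. The authors mapped the reads with HiC-Pro (build hg19), filtered artefacts and duplicate reads, and built matrices of bins near 200 kb with edges at HindIII sites, which they balanced by iterative correction (ICE) and corrected for distance. Neither the scale of the score nor the reads behind a pair are given in the sources used here, so no counting error could be computed. A pair within a region of repeated sequence depends on how reads of equal copies were placed, which is not given either. All 616 inner bin edges of chromosome 9 lay within 6 bases of a HindIII site of GRCh37, and all 24 chromosome ends matched it.

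Bins were kept where every map listed 50% or more of their chromosome 9 pairs, means were taken over pairs listed in all 4 maps, and compartments came from the Grow map, oriented by protein-coding genes (GENCODE v44 lifted to GRCh37). For the shares over the genome, 13593 of 14310 bins of the autosomes and X were kept on the same terms. Calculations used Python with numpy 2.4.6 and pandas, and were tested on simulated maps with planted differences. The chromosome, gene lists and rules were chosen with earlier results of these data known. Named were the listed genes, by start of transcription, the 2 largest rises and falls per arm, where 50% or more of pairs with the other arm were listed in all maps, and the kept bins nearest the block. 1 listed bin is not reported here. The near-block class and the 16-bin stretch were added after the values were seen. Alternatives changed the scale, centring, unlisted pairs, flanks, separation, compartments and bins kept.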

Additional observations from a re-analysis of the deposited data

Results flagged for a closer look

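Compartment strength of the q arm differed in opposite directions with RAS in the maps without and with shA1, by 0.111 and by -0.030. The second difference minus the first was -0.141. With 1 map on each side the difference was not tested, and its parts turned sign under some treatments of the values, given with the processing.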

How the results depend on the processing

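No paired analysis was possible because each shA1 map pools its 2 replicates and no result comes from a test, so no replicate was left out either. The authors report fewer reads for OIS-shA1 than for Grow-shA1, and the depth of the Grow and OIS maps is not given here. A low listing share can therefore not be told apart from shallow sequencing. Values are score differences, or SD units where each score was scaled by the SD over its separation. The cause of a change was not tested.

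The RAS difference of p-q pairs was below 0 under every alternative run, near the block and over the arms. Divided by the SD, p-q pairs differed by -0.317 (OIS minus Grow), -0.174 (OIS-shA1 minus Grow-shA1), 0.00334 (OIS-shA1 minus OIS) and -0.140 (Grow-shA1 minus Grow), arm separation by 0.201, 0.188, -0.066 and -0.052, p arm strength by 0.142, 0.127, -0.00059 and 0.014, and p-q strength by -0.272, -0.281, -0.030 and -0.021. Q arm strength differed by -0.034, -0.115 and -0.015 in the first 3 of these, and near pairs by -0.045 for OIS-shA1 minus OIS. The p-q share of rising pairs became 89.1%, 91.6%, 92.2% and 98.3%.

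With unlisted pairs as 0, p-q pairs differed by -0.030, -0.014, 0.0056 and -0.010 in the same order, near pairs by -0.149, -0.107, 0.028 and -0.014, and p-q strength by -0.147, -0.129, -0.044 and -0.063. P arm strength was 0.138 and 0.054 for the RAS differences and 0.014 for Grow-shA1 minus Grow. Q arm strength was -0.012, -0.133 and 0.019 likewise. Arm separation differed by -0.024 and -0.0079 in the last 2 comparisons, and the p-q shares were 10.5%, 9.24% and 8.38% in the first 3.

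At the lowest score for unlisted pairs, chosen after seeing the data, p-q pairs differed by -0.286, -0.179 and 0.048, arm separation by 0.066 and 0.059, and by -0.041 for Grow-shA1 minus Grow, p-q strength by 0.046 and -0.033, q arm strength by 0.184 and 0.025, and near pairs by 0.017 for OIS-shA1 minus OIS. With bins kept at 25%, also chosen then, q arm strength differed by 0.066 and -0.080 and near pairs by -0.010 for OIS-shA1 minus OIS.

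At 5 to 70 Mb, p-q pairs differed by -0.219, -0.168 and -0.025, p-q strength by -0.059 and, for Grow-shA1 minus Grow, -0.0016, q arm strength with shA1 by -0.053, and the p-q shares were 13.2%, 9.85%, 16.0% and 31.1%. At 20 to 50 Mb arm separation differed by 0.355, 0.402 and 0.0081. Averaged over 3 by 3 pairs the shares were 11.5%, 7.35% and 8.53%. With the genome-wide mean subtracted, OIS-shA1 minus OIS was 0.00072 for p-q pairs and -0.012 near the block. Without the flanks q arm strength with shA1 differed by -0.057. With compartments per arm q arm strength differed by 0.061 and -0.083, and p-q strength by -0.048 and -0.047 in the first and the third comparison. With compartments from Grow-shA1, q arm strength differed by 0.073, -0.052, -0.021 and 0.103, p arm strength by 0.069 and p-q strength by 0.0084 for Grow-shA1 minus Grow. Leaving out small compartment scores, 25, 32, 7 and 0 bins changed compartment.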
